A study of Mus musculus with 8 samples.

Results

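Notch pathway genes were described in the lung of C57/Bl6 mice at postnatal day 6, in tips of secondary alveolar septa against whole lung. The 10 genes were the receptor genes Notch1, Notch2, Notch3 and Notch4, the ligand genes Dll1, Jag1 and Jag2, the nuclear effector gene Rbpj and the target genes Hes1 and Hey1. Their measurements were all probe sets (the groups of short probes that read 1 transcript on the array) whose single annotated symbol is one of these names. This gave 13 of 12488 probe sets, for 9 of the 10 genes, and Jag1 was not analysed here. A filter on low signal left 9 of the 13, for 7 genes, among 7453 probe sets tested in all.

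The tips were cut by laser from frozen sections and pooled from many mice of different litters, 10000 tips in all, and whole lung of the same age was pooled tissue that itself contains septal tips. Per the series' design text, RNA of both tissues was amplified in parallel, the experiment was carried out as experiment 1 and again as experiment 2 with other litters, and every amplified RNA went onto 2 Affymetrix arrays on separate occasions. There were thus 2 RNA samples and 4 arrays in each group. RNA 1 and RNA 2 of a tissue are those of experiments 1 and 2, and p-values rest on the spread between these pools. The labels name no allele and no treatment for either group. In pooled tissue of this kind, fewer cells of a type and less RNA per cell cannot be told apart.

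Notch receptors sit in the cell membrane and are bound by ligands of the Delta-like and Jagged families on neighbouring cells. Binding leads to cleavage of the receptor, first by an ADAM protease and then by gamma-secretase, and the freed intracellular part enters the nucleus and joins RBPJ to switch on genes such as those of the HES and HEY repressors. In lung, the pathway is known for the choice between airway cell fates and for its part in vessels and in the mesenchymal cells around them, including pericytes, smooth muscle and myofibroblasts.

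Signals are the authors' deposited array intensities, scaled so that every array has the same trimmed mean of 1501, and signals of different probe sets are not compared with each other. Medians of the signals per array were 501 to 572 for lung and 787 to 924 for tips. Background, set from 19 bacterial and yeast control probe sets, was 314 to 568 for lung and 487 to 1244 for tips. Array 2 of the tip RNA of experiment 1 had the highest background. The arrays of this RNA also differed most from each other, by a median of 0.53 on the log2 scale over all tested probe sets, against 0.38 for the other tip RNA and 0.30 and 0.26 for the lung RNAs. The ratio of 3' to 5' signal, a measure of RNA length, was 1.95 to 5.49 for Gapdh in lung and 4.18 to 12.8 in tips, and 38.8 to 104 for actin in lung and 23.0 to 139 in tips. Each difference below is the log2 value of tips minus that of lung. The ± after a difference is limma's standard error. It combines the probe set's own spread over 2 RNA samples in each group with the spread of other probe sets. Adjusted p-values are limma's over the 7453 probe sets, with a threshold of 0.05. The median difference of all tested probe sets was 0.35, and it was 0.03 after quantile normalization, 0.05 after cyclic loess and -0.19 after median centring. A signed difference thus depends on the scaling. Single probe sets did not all follow the median, and some moved further or the other way. Notch1 97497_at, for example, went from -0.94 to -0.47 after quantile normalization and -0.41 after cyclic loess.

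The promoters of Jag2 and Notch1 are shown because these were the genes with a probe set that passed the test, a choice made after their values were seen. RefSeq promoter sequences of assembly GRCm38.p6 were at hand for 7 of the 9 measured genes. Each run below is the 250 bases before the annotated start, 5' to 3' on the gene's strand, with GC boxes (the letters GGGCGG on either strand) in capitals. The Jag2 promoter lies at chr12:112929496-112929745 and the Notch1 promoter at chr2:26503823-26504072, both on the minus strand.
Jag2: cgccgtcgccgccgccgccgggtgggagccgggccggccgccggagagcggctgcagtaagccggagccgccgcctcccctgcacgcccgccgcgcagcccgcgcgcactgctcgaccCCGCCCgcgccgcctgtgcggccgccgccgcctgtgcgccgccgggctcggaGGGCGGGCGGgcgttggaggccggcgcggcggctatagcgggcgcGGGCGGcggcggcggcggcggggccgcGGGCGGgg
Notch1: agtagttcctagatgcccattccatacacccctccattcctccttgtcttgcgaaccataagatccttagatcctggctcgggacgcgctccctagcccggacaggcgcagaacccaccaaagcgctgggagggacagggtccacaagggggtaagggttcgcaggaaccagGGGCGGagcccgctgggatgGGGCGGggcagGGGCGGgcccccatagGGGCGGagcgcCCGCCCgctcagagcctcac
Both windows held 5 GC boxes, a motif found in 32.7% of the 32851 RefSeq promoters of this length. The Notch2 window also held 5 and the Notch3 window 4, while those of Notch4, Dll1 and Rbpj held none. The core letters TGGGAA of the RBPJ site, present on either strand in 21.6% of all promoters, occurred among these genes in the Rbpj windows only. The letters CACGNG of a HES site, in 23.5% of all promoters, occurred once each in the windows of Notch2, Notch3 and Dll1. The letters CACGTG, a special case of the HES site, were in 6.02% of all promoters. The longer RBPJ letters GTGGGAA, which hold the core, were in 5.42%. The TATA box letters TATAAA were in 12.4%. None of these 3 had a match in any of the 9 windows of these genes. No measurement of promoter activity or factor binding was made in this series.

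Jag2 rose in tips, one of the Notch1 probe sets fell, and none of the other 7 tested probe sets passed the test. Thus 1 of 9 was called higher and 1 lower. Over all probe sets, 28.3% were called, 14.5% higher and 13.7% lower, so the share of these genes called was near that of the array as a whole. Without the adjustment, 4 of the 9 had a limma p under 0.05, against 43.6% of all probe sets. The signals of lung and tip arrays did not overlap for 5 of the 9, higher in tips for 3 and lower for 2, against 42.0% of all tested probe sets. The direction was the same in all 4 array pairs for 6 of the 9, against 56.3% of all. The median difference of the 9 was 0.17, and the median size without its sign was 0.91 against 0.79 for all probe sets.

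**Figure D1:**
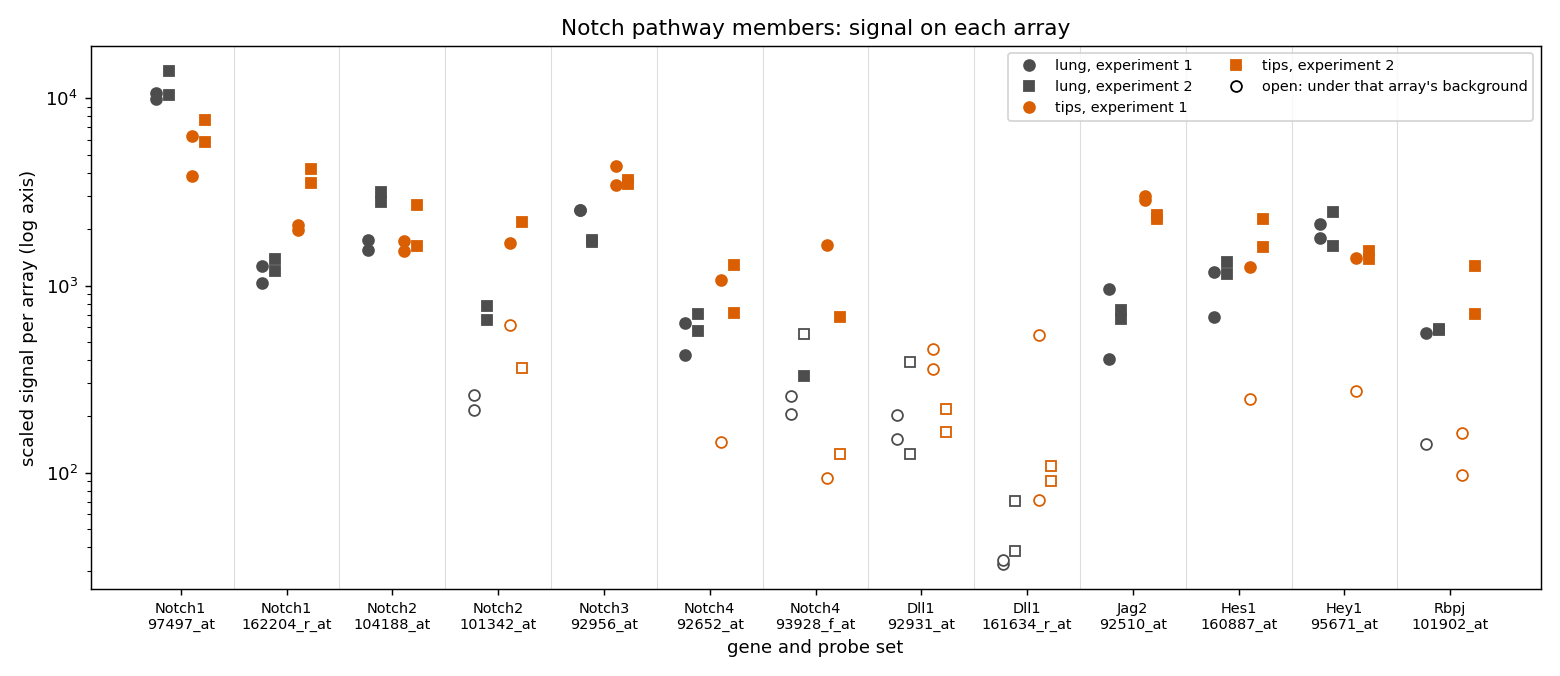
Scaled signal (log axis) of each of the 13 probe sets on each of the 8 arrays, grey for whole lung and orange for tips, circles for experiment 1 and squares for experiment 2. Open symbols lie under that array's background. Jag2 in tips, from 2260 to 3023, lies above all lung arrays, whose highest was 963, and both Dll1 probe sets are open throughout.

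The ligand gene Jag2 encodes Jagged-2, a membrane ligand of the Jagged family. Its signal on lung arrays was 403 and 963 in experiment 1 and 663 and 744 in experiment 2. On tip arrays it was 3023 and 2876 in experiment 1 and 2260 and 2386 in experiment 2. Every tip array was thus brighter than every lung array, and all 8 values were above background. Jag2 rose from 693 ± 14.5 in lung to 2636 ± 443 in tips (SD, n = 2), which is 3.80-fold on these means. The log2 difference was 1.76 ± 0.35, with a 95% interval from 0.97 to 2.55 (limma adjusted p = 0.00789). It was 1.98 in experiment 1 and 1.54 in experiment 2, and 1.41 relative to the median of all probe sets. Of all tested probe sets, 95.6% had a lower difference. The call held under quantile normalization (1.42), cyclic loess (1.40) and median centring (1.22), and from either array of each RNA alone. It was lost without lung RNA 1 (1.70, limma adjusted p = 0.0989), without lung RNA 2 (1.82, limma adjusted p = 0.0705) and with all signals under the highest array background raised to it (1.07, limma adjusted p = 0.0567).

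Dll1 encodes the ligand Delta-like 1. At probe set 92931_at its signal was 126 to 389 in lung and 165 to 456 in tips. At probe set 161634_r_at it was 32.4 to 70.3 in lung and 71.6 to 543 in tips. All 16 values were under the background of their arrays, so neither probe set was tested and no fold is given.

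Notch1 was read by probe sets that differed in opposite directions. At 97497_at, the brighter of them, lung arrays gave 9935 and 10689 in experiment 1 and 10387 and 14059 in experiment 2. Tip arrays gave 3866 and 6294 in experiment 1 and 5880 and 7637 in experiment 2. Every tip array was dimmer than every lung array, and all 8 were above background. This probe set fell from 11268 ± 1351 in lung to 5919 ± 1187 in tips (SD, n = 2). Its log2 difference was -0.94 ± 0.30 with a 95% interval from -1.63 to -0.25 (limma adjusted p = 0.0477). Experiment 1 gave -1.04 and experiment 2 gave -0.84, and the difference was -1.29 relative to the median of all. It kept its sign under all 19 alternatives but passed the threshold under 8 of them. Quantile normalization gave -0.47 (limma adjusted p = 0.318) and cyclic loess -0.41 (limma adjusted p = 0.331). It also did not pass without lung RNA 1 (-1.05, limma adjusted p = 0.158), without lung RNA 2 (-0.82, limma adjusted p = 0.240) or without tip RNA 1 (-0.72, limma adjusted p = 0.109).

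The other Notch1 probe set, 162204_r_at, gave 1029 and 1271 on the lung arrays of experiment 1 and 1380 and 1195 on those of experiment 2. In tips it gave 2116 and 1987 in experiment 1 and 3524 and 4206 in experiment 2. Here every tip array was brighter than every lung array. The means were 1219 ± 97.2 in lung and 2958 ± 1283 in tips (SD, n = 2). The log2 difference of 1.12 ± 0.38 missed the threshold (limma adjusted p = 0.0529). Experiment 1 gave 0.77 and experiment 2 gave 1.48. With the experiment as a block it passed (limma adjusted p = 0.0296), and without tip RNA 1 it was 1.55 (limma adjusted p = 0.00420). Without tip RNA 2 it was 0.69 (limma adjusted p = 0.108). The gap between the Notch1 probe sets was -2.06, and it was -1.80 in experiment 1 and -2.32 in experiment 2. Among the 896 genes with several tested probe sets, the median size of such a gap was 0.82, 89.1% had a smaller gap than Notch1, and 36.2% had probe sets of opposite sign. A name ending in r_at marks a probe set for which the array's design rules were relaxed. Where its probes lie along the transcript was not analysed here, so no single direction is given for Notch1.

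Notch2 also had probe sets that went apart. At 104188_at, lung arrays gave 1746 and 1542 in experiment 1 and 3159 and 2784 in experiment 2, and tip arrays gave 1726 and 1523 in experiment 1 and 2708 and 1633 in experiment 2. The groups overlapped, and the experiments differed from each other more than the tissues did. The log2 difference was -0.24 ± 0.37 (limma adjusted p = 0.645), -0.02 in experiment 1 and -0.46 in experiment 2. At 101342_at, lung arrays gave 217 and 262 in experiment 1 and 653 and 775 in experiment 2, while tip arrays gave 612 and 1691 in experiment 1 and 362 and 2174 in experiment 2. Only 2 lung arrays and 2 tip arrays were above background there, and array 2 was well above array 1 for both tip RNAs. The difference was 0.97 ± 0.50 (limma adjusted p = 0.160), 0.20 from array 1 of each RNA alone and 1.75 from array 2 alone.

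Notch3, a receptor known from pericytes and vascular smooth muscle, gave 2533 and 2532 on the lung arrays of experiment 1 and 1702 and 1752 on those of experiment 2. Tip arrays gave 4361 and 3444 in experiment 1 and 3502 and 3644 in experiment 2. All tip values were above all lung values, and all 8 arrays were above background. The means were 2130 ± 570 in lung and 3738 ± 233 in tips (SD, n = 2). The log2 difference of 0.79 ± 0.32, with a 95% interval from 0.06 to 1.51, did not pass (limma adjusted p = 0.0931). It was 0.59 in experiment 1 and 0.99 in experiment 2, and it passed in 1 of 19 alternatives, the fit to all 8 arrays (limma adjusted p = 0.0234).

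Notch4, the receptor known mainly from endothelium, gave 427 and 634 on the lung arrays of experiment 1 and 572 and 702 on those of experiment 2 at 92652_at. In tips it gave 1074 and 146 in experiment 1 and 713 and 1286 in experiment 2. The tip arrays thus spanned the lung values, and those of tip RNA 1 lay on either side of them. The difference was 0.17 ± 0.47 (limma adjusted p = 0.799), with a 95% interval from -0.90 to 1.24. It changed sign under quantile normalization, cyclic loess and median centring. The other probe set, 93928_f_at, whose ending marks probes that other transcripts can share, was under the filter. Its lung arrays gave 205 to 552 and its tip arrays 93.4 to 1657, with 1 lung array and 2 tip arrays above background.

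Rbpj encodes the DNA-binding protein through which the cleaved receptors act. It was under the filter and was not tested. Its lung arrays gave 558 and 143 in experiment 1 and 580 and 589 in experiment 2, and its tip arrays 97.6 and 164 in experiment 1 and 702 and 1273 in experiment 2. Both tip arrays of experiment 1 and 1 lung array lay under background, and the tips stood lower in experiment 1 (-0.71) and higher in experiment 2 (0.58).

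Among the target genes, Hey1 encodes a transcriptional repressor of the HEY family. Its lung arrays gave 1805 and 2128 in experiment 1 and 1634 and 2473 in experiment 2. Its tip arrays gave 1398 and 274 in experiment 1 and 1388 and 1525 in experiment 2. All tip values were below all lung values, but 1 of them, array 2 of tip RNA 1, was also under background. The means were 2010 ± 61.1 in lung and 1146 ± 439 in tips (SD, n = 2), and the difference of -0.91 ± 0.41 did not pass (limma adjusted p = 0.121). It was -0.28 from array 1 of each RNA alone and -1.54 from array 2 alone. It passed under median centring (-1.45, limma adjusted p = 0.0433), under cyclic loess (-1.25, limma adjusted p = 0.0401) and without tip RNA 2 (-1.40, limma adjusted p = 0.00498). Without tip RNA 1, which holds the array under background, it was -0.41 (limma adjusted p = 0.335).

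Hes1 encodes the HES repressor most often used as a readout of Notch activity. Lung arrays gave 1179 and 681 in experiment 1 and 1331 and 1153 in experiment 2, and tip arrays gave 249 and 1253 in experiment 1 and 1601 and 2278 in experiment 2. Within tip RNA 1, array 1 lay below every lung array and array 2 within their range, while both arrays of tip RNA 2 lay above them. The difference was 0.04 ± 0.51 (limma adjusted p = 0.959), with a 95% interval from -1.10 to 1.18, -0.49 in experiment 1 and 0.57 in experiment 2. Its sign turned under quantile normalization, cyclic loess and median centring.

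**Figure D2:**
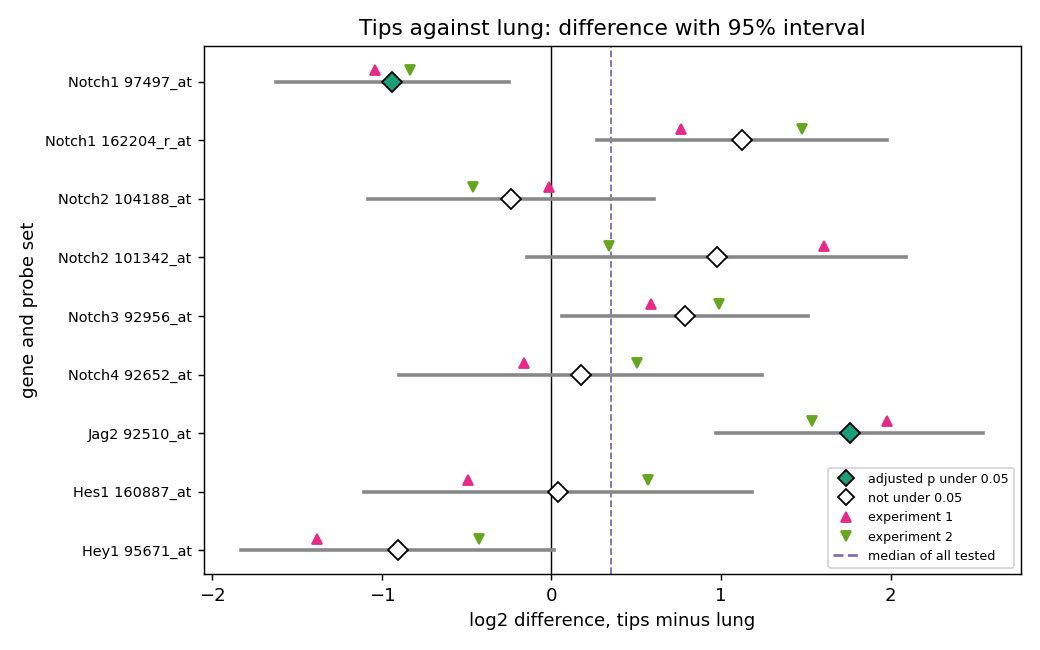
Log2 difference of tips minus lung for the 9 tested probe sets, with diamonds for the estimate, bars for its 95% interval and triangles for each experiment. Filled diamonds passed the threshold, and the dashed line is the median of all tested probe sets, 0.35. Jag2 at 1.76 and Notch1 97497_at at -0.94 are filled, while the intervals of Hes1, Hey1, Notch4 and both Notch2 probe sets span 0.

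For 4 of the 9 tested probe sets, those of Notch2 (101342_at), Notch4, Hes1 and Hey1, the arrays of tip RNA 1 lay more than 1 apart on the log2 scale, and for 1, Jag2, so did those of lung RNA 1. Notch4 and Hes1 are also the genes whose sign turned under quantile normalization, cyclic loess and median centring.

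**Figure D3:**
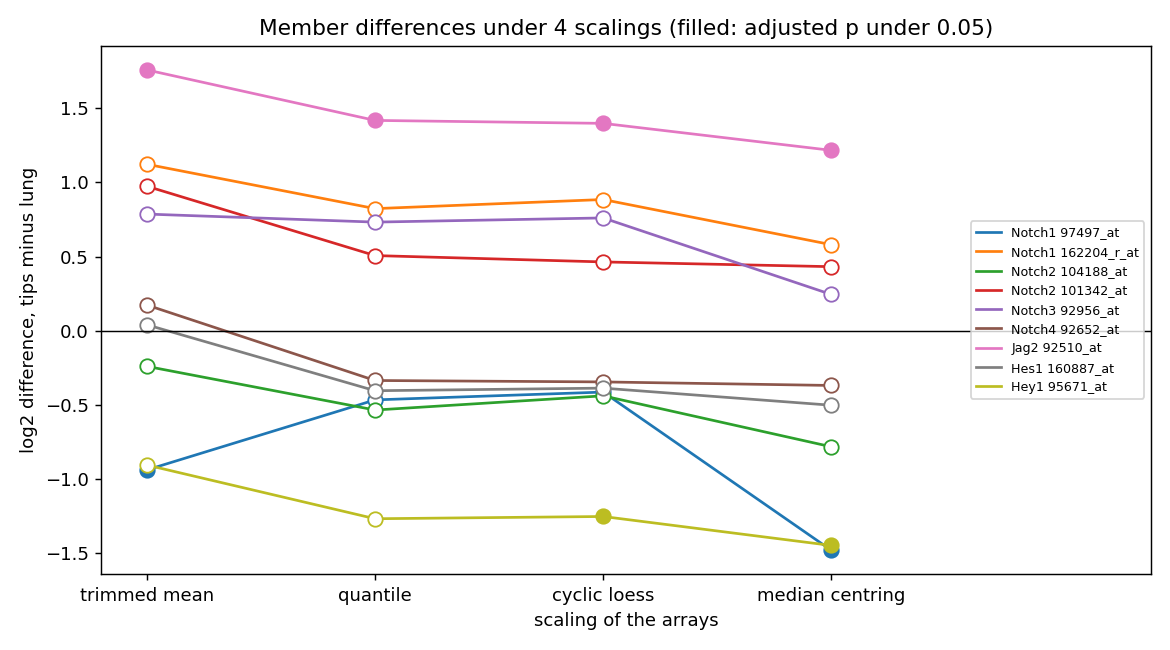
Log2 difference of tips minus lung for the 9 tested probe sets (vertical axis) under 4 scalings of the arrays (horizontal axis), with filled points where the adjusted p was under 0.05. Jag2 stays filled throughout, from 1.76 down to 1.22, and Notch1 97497_at is filled at -0.94 and -1.48 but not at -0.47 and -0.41.

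The named genes whose log2 signals followed each receptor most closely over the 8 arrays were found by Pearson's r. The arrays come from 4 RNA samples and share batch and tissue, so these values only describe likeness. For Notch1 97497_at they were Ctnnd2 (r = 0.97), Aebp2 and Acadm (r = 0.96 for each), and 134 probe sets exceeded 0.9. For Notch3 they were Brap, Vegfb and Fxyd1 (r = 0.98 for each), and 205 exceeded 0.9. For Notch2 104188_at they were Fam3c (r = 0.95), Rbbp9 (r = 0.94) and Gyg (r = 0.93), with 12 over 0.9. For Notch4 92652_at they were Pkd1, Tmem70 and Cenpk (r = 0.97 for each), with 36 over 0.9.

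Markers of the cells in which these receptors are known were counted in the same fit, each gene at its brightest probe set. Over all 5642 genes tested in this way, 29.7% were called, 14.6% higher and 15.1% lower. Of 12 measured endothelial genes, 6 were called higher in tips and 2 lower. The 3 with the smallest p were Tek (-1.72, limma adjusted p = 0.00436), Emcn (-1.64, limma adjusted p = 0.00591) and Ptprb (1.90, limma adjusted p = 0.00618). The summed signal of the 12 was 115258 to 161348 on lung and 384334 to 397703 on tip arrays. Eng made up most of the tip sum, and without it the sums were 60303 to 67368 and 73775 to 107905. Of 4 tested pericyte genes none was called. The summed signal of the 6 measured was 2926 to 4425 on lung and 4804 to 7312 on tip arrays. Background also reached 1244 on tip arrays, against 568 on lung arrays. Pdgfrb was above background on 0 lung and 2 tip arrays, and Abcc9 on 1 lung and 1 tip array. These sums thus hold signal at background level and are not read as more pericyte RNA in tips. Of 8 smooth muscle and myofibroblast genes, 5 were called higher and 1 lower, with sums of 43612 to 78900 and 43895 to 55672. The 3 with the smallest p were Mylk (-2.50, limma adjusted p = 0.00508), Tagln (1.97, limma adjusted p = 0.00511) and Actg2 (1.59, limma adjusted p = 0.00524). The Actg2 probe set, 93102_f_at, has the ending that marks probes other transcripts can share. Mylk and Acta2 made up most of the lung sums. Mean signals were 30963 in lung and 5690 in tips for Mylk, and 17565 and 17743 for Acta2. The sums thus do not follow the 5 genes called higher. None of these markers was at 0 on any array, and the part of these cells in the Jag2, Notch1 and Notch3 values was not tested. Of the other marker lists, called higher and lower in tips were 1 and 1 of 8 fibroblast, 2 and 0 of 5 alveolar type II, 0 and 1 of 4 alveolar type I, 2 and 0 of 4 airway, 0 and 1 of 6 macrophage, 2 and 1 of 4 lymphocyte and 0 and 0 of 2 erythroid genes tested.

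The rest of the pathway was taken from a list of 90 genes, of which 55 had a probe set and 38 were tested, each at its brightest probe set. In tips 8 were called higher and 5 lower. Over all 5642 genes tested in this way 29.7% were called, 14.6% higher and 15.1% lower. The median difference of the 38 was 0.20, against 0.31 for all genes. No ligand-endocytosis gene and no further HES or HEY gene was tested: none of the former had a probe set, and the 5 measured of the latter were under the filter.

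Of 3 fringe and O-glycosylation genes tested, 1 was called. Rfng, which encodes the glycosyltransferase radical fringe that adds sugars to Notch receptors, rose by 1.50 ± 0.30 (limma adjusted p = 0.00760), from 3211 ± 460 to 9306 ± 1140 (SD, n = 2). Of 6 receptor-cleaving protease genes, 2 were called, both for subunits of gamma-secretase. Psenen rose by 1.36 ± 0.32 (limma adjusted p = 0.0151) and Aph1a by 1.34 ± 0.33 (limma adjusted p = 0.0179). The other 4 were not called. Under median centring Rfng, Psenen and Aph1a were 0.96, 0.82 and 0.80 and did not pass.

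Of 6 negative regulators tested, 1 was called at its brightest probe set. Other probe sets of Snx17 (1.59, limma adjusted p = 0.0224) and Nedd4 (1.09, limma adjusted p = 0.0479) passed, while the brightest gave 0.17 for each. Numb, which encodes an endocytic adaptor that restrains Notch, fell by 1.95 at its brightest probe set (limma adjusted p = 0.00590), while its other probe set gave -0.29 (limma adjusted p = 0.551). The brightest was above background on 2 of the 4 tip arrays, and with signals raised to the highest background it gave -1.14 (limma adjusted p = 0.0484). Of 2 coactivators tested, Kat2b, a histone acetyltransferase gene, fell from 17721 ± 2102 to 1704 ± 775 (SD, n = 2), a difference of -3.33 ± 0.36 (limma adjusted p = 0.00105), and this passed under all 19 alternatives. Another Kat2b probe set, under the filter and above background on 3 lung arrays and no tip array, was not tested and gave 0.11.

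Of 8 corepressor genes tested, 3 were called at their brightest probe set, all histone deacetylases, which act in many other pathways too. Another Ctbp2 probe set gave -1.65 (limma adjusted p = 0.0104), while its brightest gave 0.02 (limma adjusted p = 0.965). Hdac3 did not exceed background on any lung array, and against that background its measured tip signal was 3.66-fold higher. Tip signals were not raised in this measure, though background reached 1244 on tip arrays against 568 on lung arrays. The p-value of Hdac3 belongs to the log2 difference of the signals themselves, not to this fold (limma adjusted p = 0.00900). Hdac1 rose by 2.20 ± 0.52 (limma adjusted p = 0.0151), and Hdac2 fell by 1.38 (limma adjusted p = 0.0131). The lung arrays of Hdac1 were above background on 2 of 4, and its arrays overlapped between groups. With signals raised to the highest background, neither Hdac1 (0.95) nor Hdac3 (0.30) passed. Raised to the next highest, Hdac1 gave 1.44 (limma adjusted p = 0.0859) and Hdac3 0.94 (limma adjusted p = 0.0599), and neither passed.

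Of 12 further genes known as Notch targets in some tissue, 3 were called higher and 2 lower. Cdkn1a, the gene of the cell-cycle inhibitor p21, did not exceed background on any lung array at its brightest probe set. By the same measure as for Hdac3, this probe set was 3.85-fold higher in tips. Its p-value is again that of the log2 difference of the signals (limma adjusted p = 0.00538). With signals raised to the highest background this probe set gave 0.38 (limma adjusted p = 0.257) and to the next highest 1.01 (limma adjusted p = 0.0551), and it did not pass. The other Cdkn1a probe set was above background on 1 lung and 1 tip array and gave 0.99 (limma adjusted p = 0.172). Myh11, smooth muscle myosin heavy chain, rose by 1.32 ± 0.32 (limma adjusted p = 0.0176). Snai2, a repressor of the Snail family, fell by 1.80 (limma adjusted p = 0.00516), and Efnb2, which encodes the arterial ephrin-B2, fell by 1.74 (limma adjusted p = 0.0155). Under median centring Myh11 was 0.77 and did not pass (limma adjusted p = 0.123). Under quantile normalization Efnb2 was -1.26 and did not pass (limma adjusted p = 0.0708). The fifth, Nrp1, lay outside the rule for named genes and is added after its values were seen: its brightest probe set gave 1.77 (limma adjusted p = 0.0186) and another -1.60 (limma adjusted p = 0.0182). The count of 13 pathway genes called became 1 without lung RNA 1 and 5 without lung RNA 2.

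**Figure D4:**
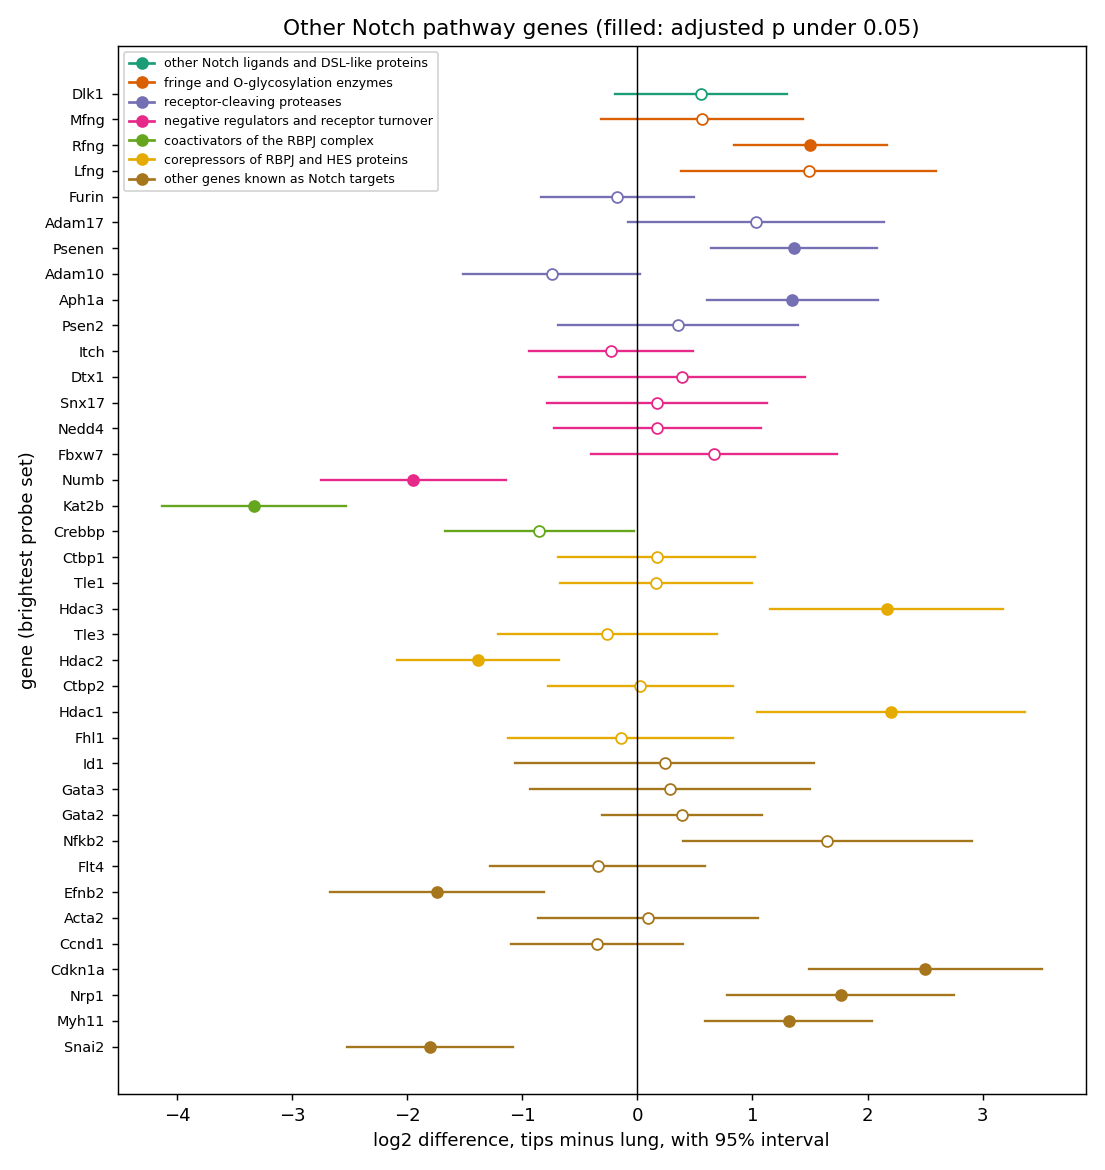
Log2 difference of tips minus lung with its 95% interval for the 38 other pathway genes tested, coloured by role, with filled points where the adjusted p was under 0.05. Of the 13 filled points, 8 lie to the right of 0 and 5 to the left, where Kat2b is lowest at -3.33. The points of Cdkn1a and Hdac3 rest on lung signals under background, so the sizes of their differences cannot be read from them.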

How the data were processed

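The deposited table holds linear intensities per probe set. The submitters' processing notes name MAS5 without a version. The values show that all arrays had been scaled alike. Genome build: not given in the sources used here. Titles set the groups, since the tip samples are described as whole lung.

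Each array was scaled to the common mean after leaving out 2% at each end, 10% of it (150.09) was added as an offset, and values were put on a log2 scale, which understates differences of dim probe sets. Probe sets under the 40th percentile of mean log2 value and 66 controls were left out. The arrays of an RNA were averaged, and RNAs were the replicates in limma 3.58.1 (R 4.3.3; lmFit, eBayes with an intensity trend, 2 residual and 7.05 prior degrees of freedom, Benjamini-Hochberg adjustment). The number of RNA samples, 2 in each group, limits the precision, and the median standard error was 0.40. An exact permutation of 2 against 2 RNAs cannot go below p = 0.333. The fit was run on simulated data, with a spread drawn around its own moderated variances. This spread was chosen after an earlier version with shuffled standard deviations gave no calls. Such data stay close to the fit's own model, so the run does not show how well the fit suits these arrays.

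Background is the 95th percentile of 19 control probe sets per array. For Hdac3 and Cdkn1a, the fold sets the brighter mean against, per dim array, the higher of background and signal. It is not a lower limit, since the brighter arrays keep their measured signals. Of the probe sets, 10855 carried 1 symbol, 396 several and 1237 none. Named were all member probe sets, up to 4 called genes of a pathway list and at most 3 genes of a marker list by smallest p, and the 3 genes most like each receptor. The members and lists were chosen with earlier results of these data known. The experiment number marks shared litters and parallel processing in the design text and therefore pairs the RNAs. Their deviations correlated at 0.0452. The main fit did not use this pairing, while the fit with the experiment as a block did. Of 6 motifs searched, all are reported.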

Additional observations from a re-analysis of the deposited data

Results flagged for a closer look

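In each probe set of these genes, the 4 arrays of a group were checked for an array far from the others, relative to the group's range. Of 26 such groups 3 had one, and chance gives about 1 in 20 for independent values, which these are not, since the 4 arrays are repeats of 2 RNAs. Array 1 of the tip RNA of experiment 1 gave 543 for Dll1 at 161634_r_at, against 71.6 to 109 on the other tip arrays, and all 4 were under background. Array 2 of the same RNA gave 274 for Hey1, against 1388 to 1525 on the others. Array 2 of the lung RNA of experiment 1 gave 143 for Rbpj, against 558 to 589 on the others. Among the other 24 groups checked, those of the named pathway genes, there was none.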

How the results depend on the processing

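The count of probe sets called was 2106. It was 860 with a floor at the highest background, 1229 from array 1 of each RNA alone and 349 to 3324 with an RNA left out. Higher calls were 51.5% of all calls, against 37.4% after quantile normalization, 41.1% after cyclic loess and 15.2% after median centring. Of the members, 2 passed, against 1 under quantile normalization, the lower floor, no filter, either array alone and no intensity trend, 0 with the highest floor, 4 with all 8 arrays and 0 to 3 without an RNA. Pathway calls were 13, against 8 with the highest floor and 1 to 17 without an RNA. The replicate block gave 2452 calls, 3 members and 16 pathway genes, and changed no other member's call than that of Notch1 162204_r_at.

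Hes1 turned to -0.40 under quantile normalization, -0.50 under median centring, -0.39 under cyclic loess, -0.0096 with an offset of 2% and -0.75 from array 1 alone, and ranged from -0.69 to 0.77 without an RNA. Notch4 92652_at turned to -0.34, -0.37 and -0.34 under the same scalings and -0.32 from array 2 alone, and ranged from -0.27 to 0.62 without an RNA. Notch2 104188_at ranged from -0.64 to 0.16 without an RNA. The causes were not tested. A fit without an RNA takes its spread from the other group alone. Of the other values given per gene and alternative, 331 kept their side of the threshold, 48 lost the call and 9 gained it. Among the 331, only Rbpj changed direction. Untested in the main fit, it turned from -0.063 to 0.0082 with the highest floor.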
